A study of Mus musculus with 26 samples.

Results

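The CCAAT/enhancer-binding proteins (C/EBPs) were followed through the 9 RNA-seq libraries and 4 chromatin peak lists of a study of MaTAR25, a nuclear long non-coding RNA of mouse mammary tumor cells. The 5 genes described are Cebpa, Cebpb, Cebpd, Cebpg and Cebpz, of 45318 genes in the count tables, chosen by symbol with the fall of Cebpg in both knockout clones and of Cebpb mainly in the second clone already known. Those same contrasts are therefore described for the 5 genes without a test. The RNA came from 4T1 cells, a BALB/c mammary tumor line. The 2 control libraries were labelled wild type and came from cells given a guide RNA against Renilla luciferase. The study grew its controls from single cells too, and chose control clones with MaTAR25 levels like those of parental 4T1 cells. The 3 KO1 and 4 KO2 libraries were labelled MaTAR25-/- and came from 2 clones, each grown from a single cell after CRISPR/Cas9 deletion over the MaTAR25 start site, so that the deletion and whatever else sets a clone apart cannot be told apart. ChIRP-seq, in which biotinylated DNA oligonucleotides pull down an RNA with the chromatin it touches, was run in wild type 4T1 cells with the even-numbered, the odd-numbered or all 14 MaTAR25 oligos, and in NDL mammary tumor cells (strain FVB) with all 14. The labels give the NDL cells the genotype MMTV-PyMT, whereas the study describes NDL as an MMTV-Neu model, and the difference is not settled here.

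The C/EBPs are basic leucine zipper (bZIP) factors that bind DNA as dimers with each other and with related factors. Cebpa drives differentiation and cell cycle exit in fat, liver and myeloid cells. Cebpb acts downstream of interleukin-6 and related cytokines and is needed for normal mammary duct and alveolar growth, and its single mRNA is translated into activating and inhibitory isoforms that mRNA counts do not separate. Cebpd is induced by inflammatory cytokines and in resting and involuting mammary epithelium. Cebpg, a short member that lacks a transactivation domain, pairs with other bZIP factors, among them Atf4, a central activator of the response to amino acid shortage. Cebpz takes its name from CCAAT-box binding but has no leucine zipper, and belongs to the nucleolar proteins of ribosome assembly.

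The upstream promoter sequences of Cebpg and Cebpb are shown because these are the members by which the group was chosen. RefSeq gave promoters for 3 of the 5 genes (Cebpa, Cebpb and Cebpg). Each run below is the 250 bases before the annotated start in build GRCm38.p6, on the strand of the gene, with motif matches in capitals. Cebpg lies at chr7:35056567-35056816 on the minus strand, and Cebpb at chr2:167688665-167688914 on the plus strand.
Cebpg: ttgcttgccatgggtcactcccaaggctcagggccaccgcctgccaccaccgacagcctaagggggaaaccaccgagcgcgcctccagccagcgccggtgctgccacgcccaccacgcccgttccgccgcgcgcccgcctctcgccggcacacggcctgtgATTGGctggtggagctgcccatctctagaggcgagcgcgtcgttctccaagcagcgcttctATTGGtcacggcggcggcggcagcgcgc
Cebpb: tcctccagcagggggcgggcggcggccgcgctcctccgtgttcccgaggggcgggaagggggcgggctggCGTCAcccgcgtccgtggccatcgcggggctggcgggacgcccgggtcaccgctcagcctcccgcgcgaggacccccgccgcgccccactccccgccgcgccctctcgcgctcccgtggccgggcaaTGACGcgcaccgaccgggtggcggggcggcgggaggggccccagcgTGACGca
In these windows 4 motifs were searched on both strands: the C/EBP palindrome TTGCGCAA, the CCAAT box (CCAAT, or ATTGG on the other strand), the ATF/CREB core TGACG (or CGTCA), and TGATGNAAN, a form of the element bound by C/EBP-ATF4 pairs. The CCAAT box is the motif for which the family was named, and what binds the matches found here was not tested. The Cebpg promoter held 2 CCAAT boxes, both as ATTGG, which begin 89 and 28 bases before the start. At least 1 CCAAT box was present in 33.9% of the 32851 promoter windows and at least 2 in 10.1%. The Cebpb promoter held 3 ATF/CREB cores, which begin 180, 53 and 7 bases before the start, whereas 17.8% of windows held at least 1 and 0.688% at least 3. The Cebpa window held none of the 4 motifs. Neither the palindrome, present in 0.164% of windows, nor TGATGNAAN, present in 3.44%, was found in any of the 3 windows.

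In control cells the family was represented mainly by Cebpg and Cebpb. Levels are given in CPM, counts scaled to library size with edgeR's TMM factors, and, between genes, as CPM per kilobase (kb) of exon. Per kb, the controls held Cebpg at 41.2 ± 0.37, Cebpb at 38.0 ± 4.0, Cebpz at 21.9 ± 3.2, Cebpa at 0.677 ± 0.17 and Cebpd at 0.416 ± 0.024 (SD, n = 2). No neighbours in this order overlapped in range, although Cebpg and Cebpb came close, at 40.9 to 41.5 and 35.2 to 40.9. In KO1 the order became Cebpb (32.1 ± 4.2), Cebpz (20.3 ± 1.3), Cebpg (11.3 ± 2.5), Cebpd (1.92 ± 0.91) and Cebpa (0.0598 ± 0.029; SD, n = 3), again without overlap between neighbours. In KO2 Cebpz came first at 24.8 ± 7.6, above Cebpb at 12.2 ± 3.0 and Cebpg at 8.24 ± 1.5 CPM per kb (SD, n = 4). The KO2 ranges of Cebpb and Cebpg overlapped, as did those of Cebpd (0.527 ± 0.37) and Cebpa (0.0956 ± 0.13). Summed over the 4 bZIP members, the level was 80.3 ± 3.4 CPM per kb in controls (n = 2), 45.4 ± 6.5 in KO1 (n = 3) and 21.1 ± 3.4 in KO2 (n = 4). Cebpg made up 49.5 to 53.2% of that sum in the controls, 22.1 to 26.1% in KO1 and 32.0 to 44.2% in KO2.

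**Figure D1:**
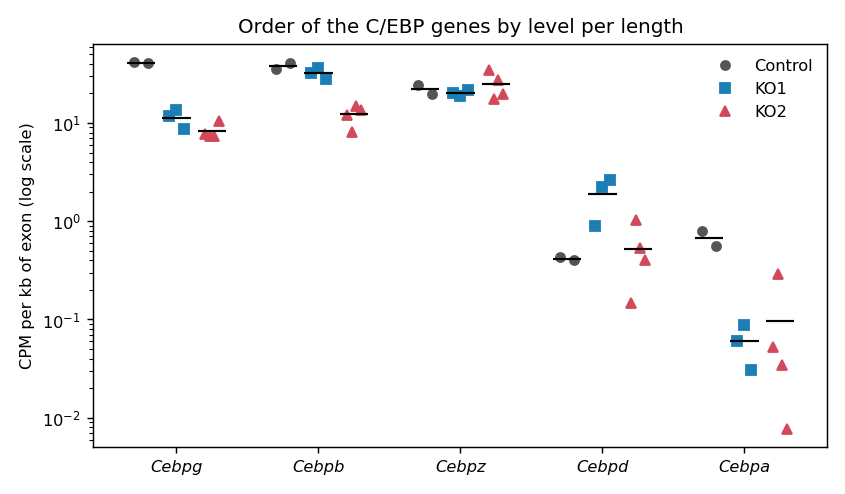
CPM per kb of exon (log scale) of the 5 genes in each library of the control (circles), KO1 (squares) and KO2 (triangles) groups, with the group mean as a bar. Cebpg leads in control and lies below Cebpz in both clones, and Cebpd and Cebpa stay lowest in all 3 groups.

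Cebpg was at 233 and 230 CPM in the controls, 65.7, 76.7 and 48.6 CPM in KO1 and 43.6, 41.8, 41.4 and 58.6 CPM in KO2. All 7 knockout libraries lay below both controls. Its mean was 27.5% of the control level in KO1 (log2 fold change -1.86 ± 0.22 SE) and 20.0% in KO2 (-2.32 ± 0.20). The KO1 and KO2 libraries overlapped, and the difference between the clones on the log2 scale was -0.46 ± 0.19. These values chose the gene and are a description. Cebpg lies on chromosome 7 from 35046422 to 35056573 on the minus strand, 62720 bases between starts from Cebpa.

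Cebpb held 52.9 and 61.4 CPM in the controls and 48.7, 54.5 and 41.8 CPM in KO1, with overlapping ranges. In KO2 it was at 18.1, 12.2, 22.6 and 20.5 CPM, below every library of the other 2 groups. KO2 thus had 32.1% of the control mean (log2 fold change -1.64 ± 0.23 SE), against 84.5% in KO1 (-0.24 ± 0.25). Between the clones the log2 difference was -1.40 ± 0.21, without overlap between their libraries. Cebpb is a short gene on chromosome 2, from 167688915 to 167690418 on the plus strand. Its start lies 144731 bases from that of MaTAR25 itself. The study measured Cebpb by qRT-PCR as a neighbour of MaTAR25 and reported no consistent change in its knockout clones. After knockdown of MaTAR25 with antisense oligonucleotides, the study reported no significant change of Cebpb. Whether the lower level in KO2 follows from the loss of MaTAR25 was not tested here.

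Cebpa, the growth-arresting member, was barely expressed. It gave 2.11 and 1.46 CPM (96 and 48 counts) in the controls, 0.159, 0.232 and 0.081 CPM (10, 7 and 3 counts) in KO1 and 0.139, 0.758, 0.0904 and 0.0204 CPM (5, 18, 4 and 1 counts) in KO2. Every knockout library lay below both controls. The log2 fold changes were -3.50 ± 1.0 SE in KO1 and -2.97 ± 0.90 in KO2, and without KO2 replicate 2 the KO2 value was -4.43. With so few counts the size of the difference is imprecise.

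Cebpd, a minor member in control cells, was higher in KO1. The controls held 1.62 and 1.49 CPM, KO1 3.36, 8.29 and 9.87 CPM, and KO2 0.558, 3.83, 1.99 and 1.51 CPM. All KO1 libraries lay above both controls (log2 fold change 2.20 ± 0.75 SE). The KO2 libraries lay on both sides of the controls (0.33 ± 0.67), and the sign in KO2 turned to -0.20 without KO2 replicate 2. KO1 replicate 1, the deepest library, was less than KO2 replicate 2, so the clones also overlapped.

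Cebpz differed little between the groups. It was at 113 and 91.6 CPM in the controls, 94.7, 88.4 and 101 CPM in KO1 and 160, 82.1, 128 and 92.4 CPM in KO2, with overlapping ranges throughout. The log2 fold changes were -0.11 ± 0.26 SE in KO1 and 0.18 ± 0.25 in KO2. Its start is 70 bases from that of Ndufaf7, which is transcribed the other way and encodes a complex I assembly factor.

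Over the members, 3 of 5 did not overlap with the controls in KO1 (Cebpa and Cebpg lower, Cebpd higher) and 3 of 5 in KO2 (Cebpa, Cebpb and Cebpg lower). Among all 15023 tested genes, 66.9% did not overlap in KO1 (33.7% lower and 33.2% higher) and 46.9% in KO2 (24.1% lower and 22.8% higher). Cebpb alone of the 5 separated the clones from each other, where 24.5% of all genes did so (12.6% lower in KO2). The members were chosen on these contrasts, so nothing is read from the comparison. All 5 passed the filter on low counts. Cebpe, the granulocyte member, had 0 counts in all 9 libraries.

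**Figure D2:**
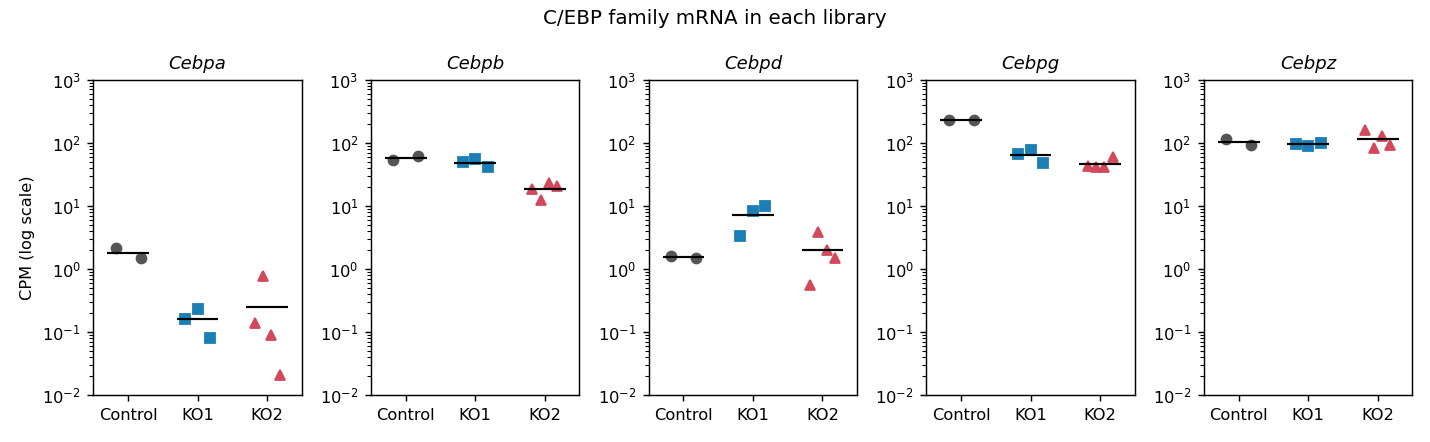
CPM (log scale) of the 5 genes in each library, with a bar at the group mean (control n = 2, KO1 n = 3, KO2 n = 4). Cebpg and Cebpa lie below the controls in every knockout library, Cebpb only in KO2, Cebpd lies above in KO1, and Cebpz overlaps throughout.

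As a check of the knockout, MaTAR25 (1200007C13Rik) had 35 and 30 counts in the controls, 2, 7 and 0 in KO1 and 11, 1, 9 and 6 in KO2. The log2 fold change was -3.39 ± 0.98 SE in KO1 (adjusted p = 0.034, edgeR) and -2.26 ± 0.83 in KO2 (adjusted p = 0.078). With these few counts the calls were lost without control replicate 1 (adjusted p = 0.14 and 0.25) or 2 (0.155 and 0.293), KO1 without KO1 replicate 1 (0.113), and KO2 without KO2 replicate 2 (0.101) or 4 (0.134). Libraries held 25367211 to 61110585 counts in genes. Of 7 epithelial markers, 6 were present and Krt5 was listed at 0 throughout, and the summed level was 3579 to 3783 CPM in controls, 4981 to 7190 in KO1 and 2112 to 4320 in KO2. The 6 leukocyte markers summed to 8.14 to 9.65, 14.3 to 29.4 and 4.91 to 29.0 CPM, with Adgre1 at 0 and most of the sum from Cd68 and Csf1r. Of 5 fibroblast markers Pdgfra alone reached 1 CPM and Dcn was at 0 (17.7 to 21.8, 21 to 39.8 and 11.7 to 46.9 CPM). The 4 neutrophil and 3 adipocyte markers never summed above 0.181 CPM, and the 4 endothelial markers not above 1.68 CPM. The part of these differences in the results was not tested. In such bulk RNA, fewer cells expressing a gene and less RNA per cell cannot be told apart.

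Among Ddit3 and the bZIP factors of other families, more genes were lower than higher in both clones. Ddit3 (CHOP), a C/EBP family member that blocks DNA binding of the others and marks stress, held 152 and 233 CPM in the controls. KO1 held 25, 43.5 and 26.4 CPM (log2 fold change -2.61 ± 0.36 SE, adjusted p = 0.0017). KO2 held 11.3, 24.6, 15.1 and 13.7 CPM (-3.58 ± 0.33, adjusted p = 0.00051). All knockout libraries lay below both controls. Of 34 bZIP factors of other families, 31 were tested. In KO1 17 passed the test (adjusted p under 0.1), 1 higher and 16 lower, against 31.6% of all tested genes (15.9% higher and 15.7% lower). In KO2 15 passed, 2 higher and 13 lower, against 31.4% of all genes (16.5% higher and 15% lower). The median log2 fold change of the list was -0.86 in KO1 and -0.60 in KO2, beside 0.02 and 0.03 over all tested genes. Both clones share the 2 control libraries, so the counts are not independent of each other, and without control replicate 1 they were 9 and 8, and in KO1 10 without control replicate 2.

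Atf3, a stress-induced partner, was at 301 and 363 CPM in the controls, at 15.5 to 28.5 CPM in KO1 (log2 fold change -3.92 ± 0.60 SE, adjusted p = 0.0029) and at 13.5 to 69.0 CPM in KO2 (-3.38 ± 0.53, adjusted p = 0.0034). Atf5, a relative of Atf4, was at 340 and 337 CPM in the controls and fell to 130, 105 and 43.9 CPM in KO1 (-1.86, adjusted p = 0.0093). In KO2 it was lower still, at 8.42 to 14.8 CPM (-4.96, adjusted p = 0.0003), and the clones differed by -3.10 ± 0.34 (adjusted p = 0.0021). Atf4 averaged 575 CPM in the controls, 347 in KO1 (-0.73, adjusted p = 0.053) and 176 CPM in KO2 (-1.71, adjusted p = 0.0015). Per kb the most abundant bZIP mRNAs were those of the AP-1 genes Jund and Junb. Jund fell in KO1 (-1.01 ± 0.32, adjusted p = 0.050) but not past the threshold in KO2 (-0.71, adjusted p = 0.12). The KO1 call was lost without control replicate 1 (0.143) or 2 (0.265), or KO1 replicate 2 (0.133) or 3 (0.146), and the KO2 adjusted p was 0.0456 without KO2 replicate 3. Junb had -0.86 (adjusted p = 0.14) and -0.75 (adjusted p = 0.16), and passed in KO1 without KO2 replicate 2 (0.0258) or 4 (0.0964) and in KO2 without KO2 replicate 4 (0.0642).

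Genes of the amino acid and redox stress response, which Cebpg and Atf4 are known to control together, were mostly lower. Of 26 listed genes 25 were tested. In KO1 2 were higher and 14 lower, with a median log2 fold change of -0.91, against 15.9% higher and 15.7% lower among all tested genes. In KO2 1 was higher and 19 lower, with a median of -1.86, against 16.5% and 15%. Compared directly, KO2 was below KO1 for 15 genes and above for none, against 19.6% of all tested genes (10.2% higher and 9.43% lower), with a median of -0.75 beside 0.02 over all genes. The KO1 count was 8 without control replicate 1 and 7 without control replicate 2, while that of KO2 was 16 and 19. The list crosses the pathway of Atf4, and its genes were picked with the fall of Cebpg known.

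Trib3, an inhibitor of Atf4 activity that is itself induced by stress, fell from 474 and 553 CPM to 60.8, 139 and 61.2 CPM in KO1 (log2 fold change -2.56 ± 0.39 SE, adjusted p = 0.0029) and to 7.91 to 14.4 CPM in KO2 (-5.52 ± 0.39, adjusted p = 0.00029). Slc7a11, which imports cystine for glutathione, went from 182 and 218 CPM to 43.1, 67.3 and 20.1 CPM in KO1 (-2.20, adjusted p = 0.0062) and to 9.60 to 15.7 CPM in KO2 (-4.01, adjusted p = 0.00057). Vldlr, a lipoprotein receptor, was at 36.9 and 48.0 CPM in the controls, 8.19, 9.19 and 1.27 CPM in KO1 (-2.77, adjusted p = 0.039) and 0.223, 0.253, 0.0678 and 0 CPM in KO2 (-8.43, adjusted p = 0.00098). All 3 genes were lower in KO2 than in KO1 without overlap. The KO1 call of Vldlr was lost without control replicate 1 (adjusted p = 0.144) or 2 (0.194). Ddit4, an inhibitor of mTORC1, averaged 1125 CPM in controls, 511 in KO1 (-1.14, adjusted p = 0.086) and 95 CPM in KO2 (-3.56, adjusted p = 0.00098), and its KO1 adjusted p lay between 0.211 and 0.324 without either control or without KO1 replicate 1 or 3. Shmt2, a mitochondrial serine enzyme, went the other way in KO1 (0.44, adjusted p = 0.080) and not in KO2 (-0.19, adjusted p = 0.40). Its KO1 adjusted p was 0.398 without control replicate 1, 0.163 without control replicate 2, 0.206 without KO1 replicate 2 and 0.151 without KO1 replicate 3.

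**Figure D3:**
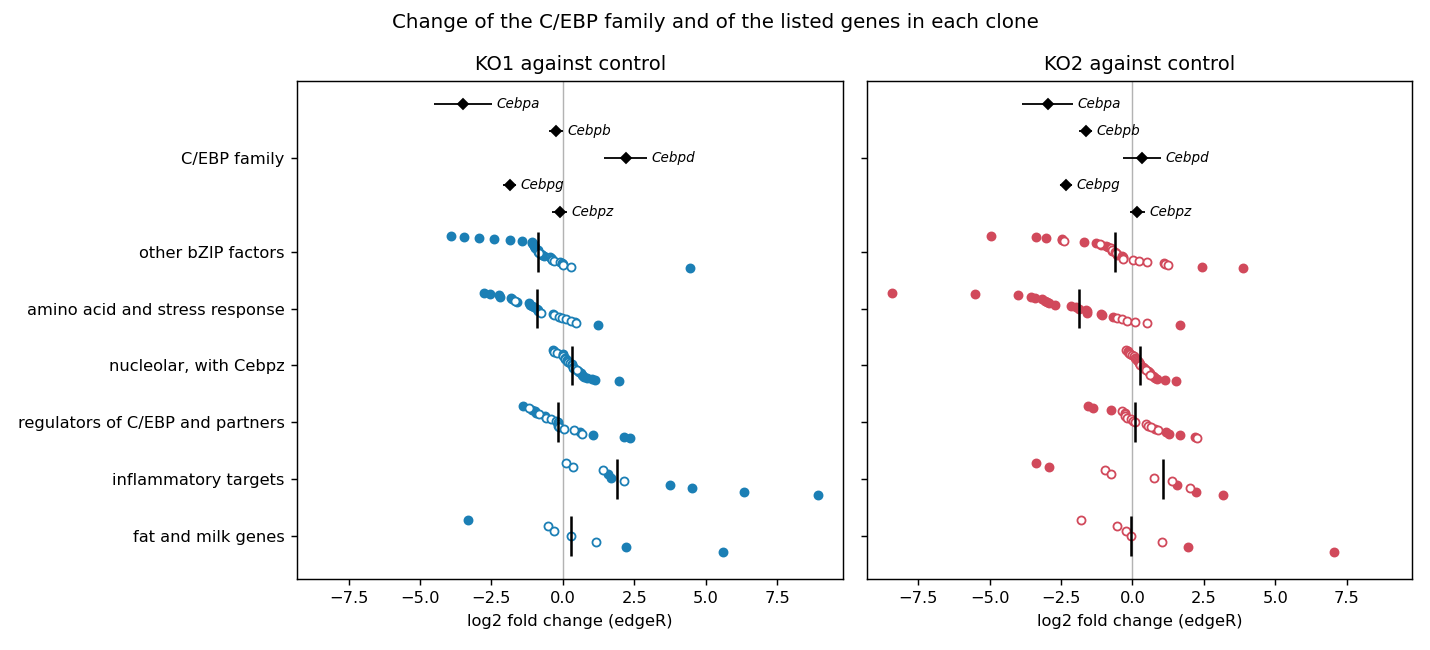
log2 fold changes against control in KO1 and KO2 for the 5 C/EBP genes (diamonds, with SE) and for each tested gene of 6 lists (filled circles, adjusted p under 0.1; open circles, not), with the list median as a bar. The amino acid list has medians of -0.91 in KO1 and -1.86 in KO2, and the nucleolar list 0.31 and 0.27.

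Inflammatory and acute-phase genes are known targets of Cebpb and Cebpd. Only 10 of 24 listed genes had counts enough to be tested, and 3 were at 0 in all libraries. In KO1 6 were higher and none lower, against 31.6% called among all tested genes (median log2 fold change 1.91, beside 0.02 over all genes). In KO2 3 were higher and 2 lower, against 31.4% (median 1.07, beside 0.03). Between the clones KO2 was lower for 5 and higher for 1, against 19.6% (median -1.93, beside 0.02). The KO2 count of 5 became 3 without control replicate 1 or without control replicate 2. Cxcl5, a neutrophil chemokine, was at 4.81 and 6.95 CPM in the controls, 115, 764 and 541 CPM in KO1 (6.33 ± 1.3 SE, adjusted p = 0.0086) and 13.2, 96.8, 85.7 and 14.2 CPM in KO2 (3.16 ± 1.1, adjusted p = 0.060). The clones differed (-3.17, adjusted p = 0.037), a call lost without KO1 replicate 2 (0.141), and that of KO2 was lost without control replicate 1 (0.29) or 2 (0.231). Cd14, a lipopolysaccharide co-receptor, rose from 5.99 and 3.96 CPM to 11.9, 19.3 and 16.3 CPM in KO1 (1.67, adjusted p = 0.012) and 9.01 to 17.3 CPM in KO2 (1.55, adjusted p = 0.014), and lost both calls without control replicate 2 (0.124 and 0.153). Ptgs2, the inducible prostaglandin synthase, was at 181 and 259 CPM in the controls, 326, 145 and 240 CPM in KO1 (0.11, adjusted p = 0.89) and 689, 1956, 684 and 769 CPM in KO2 (2.22, adjusted p = 0.016), where the adjusted p was 0.149 without control replicate 1. Complement C3, chosen after its values were seen, averaged 21.1 CPM in controls, 486 in KO1 (4.52, adjusted p = 0.0086) and 2.72 CPM in KO2 (-2.92, adjusted p = 0.018).

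**Figure D4:**
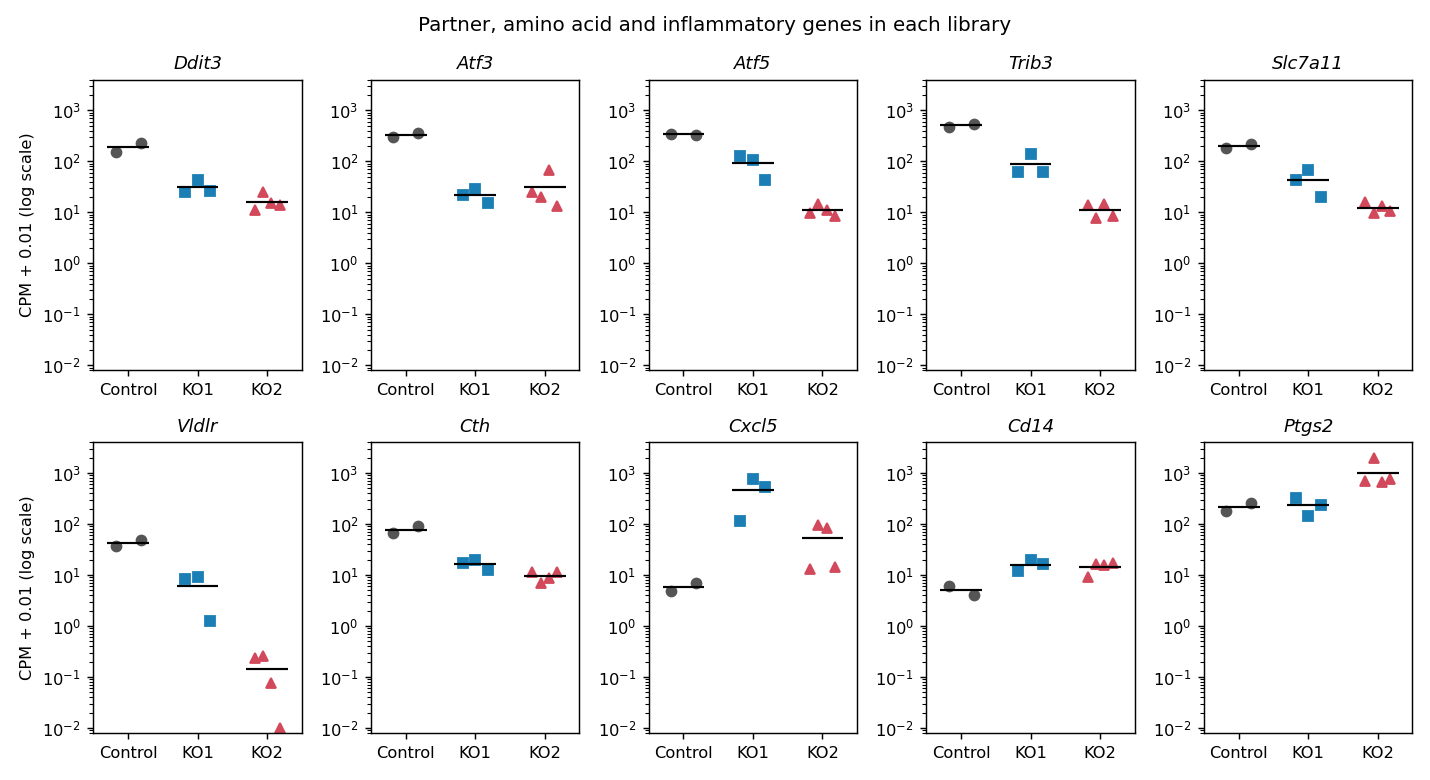
CPM + 0.01 (log scale) in each library of the partner genes Ddit3, Atf3 and Atf5, the amino acid genes Trib3, Slc7a11, Vldlr and Cth, and the inflammatory genes Cxcl5, Cd14 and Ptgs2, with a bar at the group mean. The first 7 lie below both controls in every knockout library, Cxcl5 and Cd14 lie above, and Ptgs2 lies above in KO2.

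Among 22 signals, regulators and cell cycle partners of the family, 21 were tested. In KO1 4 were higher and 5 lower, and in KO2 5 were higher and 3 lower, with medians of -0.19 and 0.09. Those 9 and 8 genes stand beside 31.6% and 31.4% called among all tested genes. Without control replicate 1 the counts were 3 and 5, and 3 in each clone without control replicate 2. E2f1, the cell cycle factor whose activity C/EBP alpha restrains, rose from 19.9 and 24.2 CPM to 84.7 to 119 CPM in KO1 (2.14 ± 0.29 SE, adjusted p = 0.0016) and 66.4 to 124 CPM in KO2 (2.18 ± 0.28, adjusted p = 0.0015). Ccnd1 (cyclin D1), reported to modulate Cebpb activity, rose from 536 and 355 CPM to 1364 to 3016 CPM in KO1 (2.36, adjusted p = 0.0034) and 998 to 1756 CPM in KO2 (1.67, adjusted p = 0.011; 0.12 without control replicate 2). Il1r1, the receptor for a main inducer of Cebpb and Cebpd, fell in both clones (KO1 -1.40, adjusted p = 0.029, and KO2 -1.55, adjusted p = 0.015). Its KO1 call was lost without control replicate 1 (0.135) or 2 (0.154), and that of KO2 without control replicate 2 (0.111). Calr, which can bind Cebpa and Cebpb mRNA, had 0.66 in KO1 (adjusted p = 0.24; 0.0292 without KO2 replicate 2) and 1.27 in KO2 (adjusted p = 0.037; 0.225 without control replicate 1 and 0.169 without control replicate 2).

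Of 22 milk and fat cell differentiation genes, 7 were tested and 4 were at 0 throughout. In KO1 2 were higher and 1 lower, and in KO2 2 were higher (medians 0.28 and -0.05), beside 31.6% and 31.4% called among all tested genes. The KO1 count of 3 was 1 without control replicate 1, and the KO2 count was 4 without KO2 replicate 3. Fasn, the fatty acid synthase, rose from 356 and 284 CPM to 1330 to 1681 CPM in KO1 (2.21 ± 0.19 SE, adjusted p = 0.00058) and 1119 to 1412 CPM in KO2 (1.95 ± 0.18, adjusted p = 0.00046). Scd1, a lipid desaturase, had 1.16 (adjusted p = 0.11) and 1.05 (adjusted p = 0.13), and passed in KO1 without KO1 replicate 2 (0.0883) or KO2 replicate 1 (0.0648), 2 (0.0852) or 3 (0.0714), and in KO2 without KO2 replicate 2 (0.0782) or 3 (0.0588). The milk protein genes Csn1s1, Csn2 and Lalba were at 0 in every library, whereas Csn3, also a milk protein gene, was the 1 called lower in KO1.

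All 29 nucleolar genes chosen to stand beside Cebpz were tested. In KO1 10 were higher and none lower (median log2 fold change 0.31), against 15.9% higher and 15.7% lower among all tested genes. In KO2 9 were higher and none lower (median 0.27), against 16.5% and 15%. With both directions together, 34.5% and 31% of the list were called, near the 31.6% and 31.4% of all genes. The KO1 count was 2 without control replicate 1, 2 without control replicate 2 and 5 without KO1 replicate 3, and the KO2 count 4 and 1 without the 2 controls in turn. Nhp2, a box H/ACA protein, rose from 62.1 and 56.7 CPM to 198 to 255 CPM in KO1 (1.95 ± 0.27 SE, adjusted p = 0.0017) and 118 to 231 CPM in KO2 (1.53 ± 0.25, adjusted p = 0.0040). Ebna1bp2 rose by 0.83 (adjusted p = 0.035) in KO1 and by 1.16 (adjusted p = 0.0092) in KO2. Its KO1 adjusted p was 0.12 and 0.225 without control replicate 1 and 2 and 0.103 without KO1 replicate 3, and its KO2 value 0.109 without control replicate 2. Bop1, an assembly factor of the large subunit, rose by 1.14 (adjusted p = 0.021) and 0.79 (adjusted p = 0.066), with KO1 calls lost without control replicate 1 (0.112) or 2 (0.155) and KO2 calls without control replicate 1 (0.209) or 2 (0.318) or KO2 replicate 1 (0.116). The abundant Npm1 and Ncl did not pass the test in either clone (adjusted p = 0.70 and 1.0 for Npm1, 0.16 and 0.43 for Ncl), although Ncl passed in KO1 without KO1 replicate 1 (0.0938).

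Genes near the members were examined for shared change. The annotation held 16 genes within 200 kb of Cebpa, 16 of Cebpb, 6 of Cebpd, 14 of Cebpg and 16 of Cebpz, of which 2, 9, 3, 1 and 11 were tested, other members left out. The tests called 1, 4, 0, 1 and 4 of them in KO1 and 0, 4, 0, 0 and 2 in KO2, where 31.6% and 31.4% of all tested genes were called. Pepd is counted for both Cebpa and Cebpg, and the genes near Cebpb include MaTAR25 itself. Tested genes that overlapped a member were Tmem189 for Cebpb, Spidr for Cebpd and Cebpzos for Cebpz, each on the opposite strand. The counting was not stated to use strand, so shared reads cannot be assigned. Tmem189 had log2 fold changes of 0.24 (adjusted p = 0.38) and -0.14 (adjusted p = 0.58) where Cebpb had -0.24 and -1.64. Spidr had -0.28 (adjusted p = 0.60) and 0.22 (adjusted p = 0.67), and Cebpzos 0.15 (adjusted p = 0.76) and 0.04 (adjusted p = 0.94). In the 200 kb round Cebpb, the genes named by rule, beside MaTAR25, were Rnf114, a ubiquitin ligase (-0.51, adjusted p = 0.077, and -1.09, adjusted p = 0.0034), and the non-coding Gm14321 (-2.10, adjusted p = 0.0050, and -1.13, adjusted p = 0.040). Round Cebpz they were Strn (-0.43, adjusted p = 0.089, and -0.43, adjusted p = 0.074) and Heatr5b (0.86, adjusted p = 0.022, and 0.77, adjusted p = 0.030). Most of these calls rested on both controls. Without control replicate 1 and 2 the adjusted p was 0.28 and 0.287 for Rnf114 in KO1, 0.31 and 0.129 for Gm14321 in KO2, 0.281 and 0.346 for Strn in KO1 and 0.265 and 0.332 in KO2, and 0.176 and 0.108 for Heatr5b in KO1 and 0.223 and 0.139 in KO2. Without a KO1 library the KO1 adjusted p of Rnf114 was 0.115 to 0.206 and that of Strn 0.156 to 0.184, and Strn in KO2 was at 0.101 to 0.109 without a KO1 library and 0.115 without KO2 replicate 4.

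The genes whose level over the 9 libraries was most like that of Cebpg, by Pearson's r of log2(CPM + 1) among 12027 genes that averaged 1 CPM or more, were Slc1a4 (r = 0.994), Fam19a3 (0.992), Thap3 (0.986), Klhl33 (0.985) and Cth (0.984). The 9 points share 3 groups and their depth, so r is a description. Slc1a4 carries neutral amino acids, and Cth makes cysteine from cystathionine. Slc1a4 was at 154 and 151 CPM in the controls, 28.9 to 55.5 CPM in KO1 and 21.4 to 33.4 CPM in KO2. Cth was at 65.7 and 90.3 CPM in the controls, 12.5 to 19.9 CPM in KO1 and 6.99 to 11.7 CPM in KO2. Thap3 was at 47.1 and 52.5, 21.4 to 25.3 and 19.2 to 25.4 CPM. Those most like Cebpb were Firre (0.986), a non-coding RNA of the X chromosome, Bhlhe40 (0.984), a circadian and stress-responsive repressor, Ermard (0.982), Zfp444 (0.981) and Dennd2d (0.980). Bhlhe40 was at 252 and 238 CPM in the controls, 157 to 250 CPM in KO1 and 26.7 to 80.6 CPM in KO2. Within the family, r with Cebpg was 0.72 for Cebpb, -0.21 for Cebpd and -0.19 for Cebpz.

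The ChIRP peak lists held 64607 peaks for the even oligos, 61311 for the odd, 76806 for all oligos in 4T1 and 70329 in NDL cells. Replicates had been pooled and peaks kept at 50-fold over a pulldown of Ppib (cyclophilin B) mRNA, so peaks have no replicate error. The Ppib pulldown had 1 library in 4T1 cells and 1 in NDL cells. The gene name given in the lists was Cebpd for 1, 2, 3 and 2 peaks (even, odd, all in 4T1, NDL), and no peak was named for Cebpa, Cebpb, Cebpg or Cebpz. That name is empty for 75.6 to 75.9% of peaks, and 22.6 to 27.1% of the tested genes are named for a peak in a given list. By the nearest annotated transcript start, a reading added after seeing the data, Cebpd had 5, 5, 9 and 8 peaks, Cebpa 1 in the 4T1 list with all oligos, Cebpg 1 in NDL, and Cebpb and Cebpz none. Of the genes tested, 52.7 to 59.9% had a peak by that reading.

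A peak 2.94 kb upstream of Cebpd was found with all oligos in 4T1 (chr16:15884032-15884660, score 65.1), with the even oligos (score 43.4) and in NDL cells (score 60.9), but not with the odd oligos. It stood at rank 25617 of 76806 by score. A further peak, 6.68 kb upstream, was strongest with the odd oligos (score 150.3) and weak with all oligos in 4T1 (24.3) and in NDL (18.8), and was not in the even list. Weaker upstream peaks lay at -8.07 kb with the odd oligos (score 15.8) and at -11.2 kb with all oligos in 4T1 (score 18.8). The remaining peaks assigned to Cebpd lay downstream, mostly in introns of Spidr, up to 61.3 kb from the start. Within 100 kb of the start site, Cebpd had 8, 9, 13 and 11 peaks (even, odd, all in 4T1, NDL), Cebpg 8, 4, 10 and 11, Cebpa 6, 3, 8 and 5, Cebpb 5, 6, 5 and 6, and Cebpz 3, 7, 5 and 5. Over all tested genes with a position the median was 6, 5, 7 and 7, with quartiles of 4 and 8, 4 and 7, 5 and 9, and 5 and 9. Within 5 kb of a start there were peaks only for Cebpd (even, all in 4T1, NDL), for Cebpb (even and all in 4T1, 2.78 kb downstream in the latter) and for Cebpg (NDL, 4.72 kb downstream).

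Near Cebpb, 1 peak was common to all 4 lists. It lay in an exon of the non-coding gene A530013C23Rik, 8.33 kb downstream of the Cebpb start (chr2:167696870-167697627 with all oligos in 4T1), with scores of 25.1, 409.1, 120.5 and 99.7. The highest score within 100 kb of Cebpb, 713.8, was with the odd oligos at the end of A530013C23Rik, 40.6 kb downstream, where NDL also had a peak (227.6). Chromosome 2 has 8877 even-oligo peaks and chromosome 3 has 0, against 4454 and 3835 with the odd oligos, and whether the names of the 2 chromosomes were merged in it was not tested. Chromosome 3 ends at 160039680, before the Cebpb region, so the even peaks here cannot be chromosome 3 positions. Between Cebpg and Cebpa, all 4 lists shared a peak 18.6 kb upstream of Cebpa (scores 236.7, 52.7, 225.7 and 272), and a peak 12.6 kb upstream was in the even list (190.2) and the 4T1 list with all oligos (246.9).

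**Figure D5:**
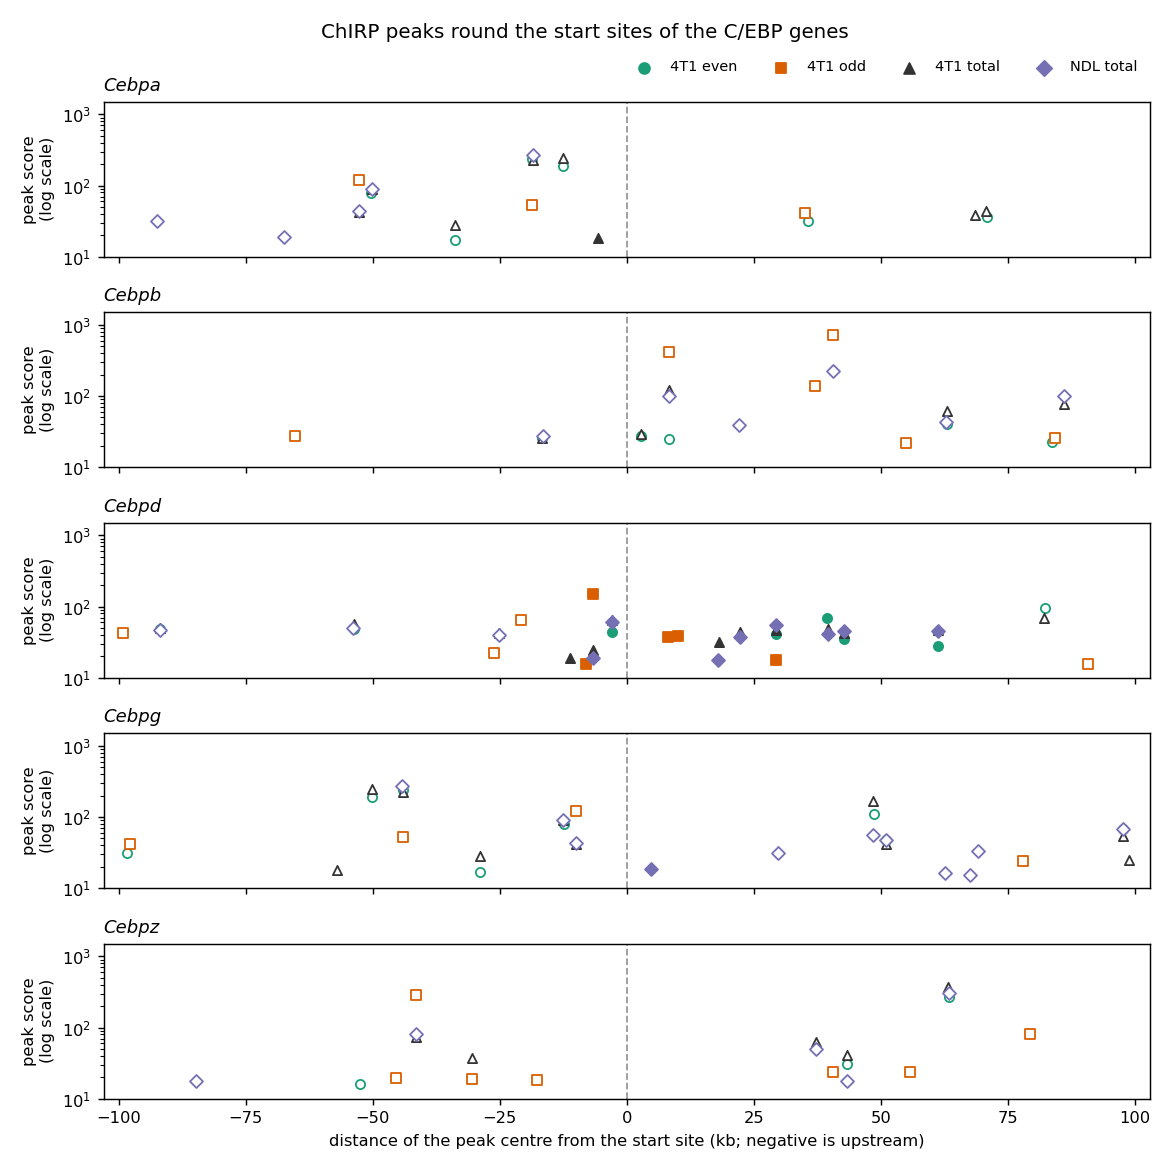
Peak score (log scale) against the distance of the peak centre from the start site (kb, negative upstream) for peaks of the 4 lists within 100 kb of each C/EBP gene. Filled marks are peaks assigned to the gene by name or nearest start, which are almost all those of Cebpd; the highest score, 713.8, lies 40.6 kb downstream of Cebpb.

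The oligos used in the pulldown are DNA, so runs shared between oligo and peak are given. Shown are oligos 2 and 12 and, for 3 peaks of the 4T1 list with all oligos, 300 bases on the plus strand of GRCm38.p6, where capitals mark runs of 12 or more bases identical to a MaTAR25 oligo or its complement. They are the peak nearest Cebpd (chr16:15884197-15884496), the strongest between Cebpg and Cebpa (chr7:35106568-35106867) and the strongest near Cebpz (chr17:78873490-78873789, score 376, 63.3 kb downstream).
oligo 2: aagagtctgacttcttggca
oligo 12: aatagggagaagggaggctc
Cebpd peak: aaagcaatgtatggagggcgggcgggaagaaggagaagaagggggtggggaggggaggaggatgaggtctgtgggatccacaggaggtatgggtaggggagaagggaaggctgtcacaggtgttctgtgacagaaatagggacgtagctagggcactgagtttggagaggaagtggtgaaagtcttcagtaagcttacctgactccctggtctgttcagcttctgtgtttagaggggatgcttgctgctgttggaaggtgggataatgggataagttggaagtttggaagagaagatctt
Cebpg-Cebpa peak: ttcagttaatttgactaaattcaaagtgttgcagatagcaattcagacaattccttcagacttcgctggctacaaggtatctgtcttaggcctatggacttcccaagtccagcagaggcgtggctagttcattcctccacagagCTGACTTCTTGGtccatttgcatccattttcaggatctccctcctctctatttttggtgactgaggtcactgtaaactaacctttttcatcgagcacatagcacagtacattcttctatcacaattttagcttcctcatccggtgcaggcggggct
Cebpz peak: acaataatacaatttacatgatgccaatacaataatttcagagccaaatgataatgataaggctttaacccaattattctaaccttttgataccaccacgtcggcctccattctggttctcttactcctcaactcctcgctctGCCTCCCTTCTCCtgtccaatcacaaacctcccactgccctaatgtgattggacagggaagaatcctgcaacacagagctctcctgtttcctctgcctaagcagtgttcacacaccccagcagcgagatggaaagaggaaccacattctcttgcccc
The Cebpg-Cebpa peak held 12 bases of oligo 2 on the same strand, and the Cebpz peak 13 bases complementary to oligo 12. The Cebpd peak held no run of 12 bases, although it shared the shorter run gggagaaggga with oligo 12. Counting each peak once, 7 of 25 even peaks, 5 of 26 odd, 10 of 35 with all oligos in 4T1 and 9 of 33 in NDL within 100 kb of a member held such a run, that is 28, 19.2, 28.6 and 27.3%. Over whole lists the shares were 19.8, 23.8, 24.2 and 23.6%. The 7 runs in the even peaks were all of even-numbered oligos, and 4 of the 5 in the odd peaks were of odd-numbered oligos. Over the whole even list 18% of peaks held a run of an even and 2.02% of an odd oligo, and over the odd list 6.10% and 18%. With runs of at least 10 bases in place of 12, the counts within 100 kb were 20, 16, 28 and 26, beside 58.3 to 64.9% of whole lists. The even-list peak upstream of Cebpd (score 43.4) was among them. With 14 bases the count was 0 in each list, beside 3.27 to 3.93% of whole lists. A shared run is a description of the letters. Of the peaks within 100 kb, 24 of 25 even peaks overlapped a peak of another list by at least 1 base, against 10 of 26 odd, 31 of 35 with all oligos in 4T1 and 26 of 33 in NDL. The overlap over whole lists was not worked out, so these counts are not read as a trait of the C/EBP genes. The lists with all oligos were made with both pools, so the lists are not independent of each other in what was pulled down.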

How the data were processed

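RNA was measured by polyA RNA-seq in 9 libraries of 4T1 cells. The authors mapped reads to GRCm38 with STAR and deposited raw counts per gene made with HTSeq on GENCODE vM5; the submitters' notes also name CASAVA, FastQC and DESeq2. Between 33.9 and 37.0% of the tallied reads were not assigned to a gene and were left out. They were outside genes, ambiguous between genes, low in alignment quality, unaligned or not uniquely aligned. KO2 replicate 2 lists each gene 3 times with equal counts, used once. For ChIRP-seq, the authors deposited pooled peak lists with a peak score and a distance to the nearest start, made with Bowtie2 and HOMER on mm10 with GENCODE vM16.

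Counts were fitted here with edgeR 4.0.16 (R 4.3.3; filterByExpr, TMM, glmQLFit and glmQLFTest) on 3 groups, with Benjamini-Hochberg adjustment over 15023 genes and a threshold of 0.1. KO against control, with both clones as 1 group, is the study's comparison and called 3392 genes (22.6%). Alternatives were DESeq2 1.42.0, RLE factors, 2 count filters, a threshold of 0.05, a replicate block, only the groups compared and each library left out. The fit was tested on simulated data. Lengths and positions are from GENCODE vM21, sequences from RefSeq GRCm38.p6.

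The members and lists were chosen with earlier results of these data known. Named genes are the members; of each list, up to 3 with the largest mean change over the clones among those called alike in both, and the 2 highest per kb, at a mean of at least 1 CPM; genes overlapping a member or called in both clones within 200 kb; the 5 most like Cebpg and Cebpb; Cebpe, Ddit3 and MaTAR25. A gene named by this rule is not reported here. Genes outside this rule were picked after their values were seen. No source used here says that replicates were separate cultures, so p-values measure the spread between libraries.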

Additional observations from a re-analysis of the deposited data

Results flagged for a closer look

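Among 49 named genes, 1 KO2 library stood apart from the other 3 for 6 genes, by a criterion that chance meets in about 1 of 20 groups. The highest values were 0.758 CPM of Cebpa in replicate 2, 58.6 CPM of Cebpg in replicate 4, 1956 CPM of Ptgs2 in replicate 2, 2366 CPM of Npm1 in replicate 3 and 0.817 CPM of Klhl33 in replicate 4. The lowest was 9.01 CPM of Cd14 in replicate 1.

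For 18 of 43 named genes the clones differed in the test of KO2 against KO1 itself, a test that called 19.6% of all genes. Of the partner and amino acid genes, the log2 difference was -0.97 for Ddit3 (adjusted p = 0.0661), -3.10 for Atf5 (0.00207), -5.66 for Vldlr (0.00714), -2.96 for Trib3 (0.00261), -1.81 for Slc7a11 (0.0147), -2.42 for Ddit4 (0.00684), -0.63 for Shmt2 (0.0206), -0.69 for Slc1a4 (0.0897) and -0.75 for Cth (0.0724). Of the inflammatory genes it was -3.17 for Cxcl5 (0.0371) and 2.11 for Ptgs2 (0.0192). Near Cebpb it was -0.58 for Rnf114 (0.0433) and 0.96 for Gm14321 (0.0847). Of the genes most like Cebpb it was -1.03 for Firre (0.0149), -1.72 for Bhlhe40 (0.0143), -0.59 for Ermard (0.0803), -0.89 for Zfp444 (0.0185) and -1.87 for Dennd2d (0.0219), which were selected for a pattern that differs between the clones. Over 16 alternatives each, the call was lost in 12 for Ermard, 11 for Gm14321, 9 for Slc1a4, 8 for Cth, 6 for Ddit3, 3 for Rnf114, and 1 each for Cxcl5 and Shmt2. The highest adjusted p came without KO1 replicate 2 for all of these, at 0.248, 0.265, 0.351, 0.255, 0.263, 0.158, 0.141 and 0.102 in the same order. Ddit3 was also lost without KO1 replicate 3 (0.103), KO2 replicate 1 (0.133) or KO2 replicate 4 (0.127).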

How the results depend on the processing

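No change of a named gene outside the members turned direction past the threshold in any alternative. The members had no threshold. Their log2 fold changes took either sign for Cebpd in KO2 (-0.20 to 0.64) and for Cebpz in KO1 (-0.25 to 0.06) and KO2 (-0.02 to 0.35). Each of these shifts from the main value was smaller than the SD of log2 CPM between libraries. Of 2688 values of named genes under alternatives, 198 lost and 49 gained a call. KO1 against control called 4750 genes, and 7752 with only the groups compared. KO2 against KO1 called 2944, and 1643 at an adjusted p of 0.05, 1736 with the replicate block and 1932 with only the groups compared. KO against control called 3392, and 2235 at 0.05 and 1952 with the replicate block. The cause was not tested. Leaving out 1 library gave 1482 to 5661 genes for KO1, 1366 to 5352 for KO2 (main count 4724), 874 to 4077 for KO2 against KO1 and 462 to 3976 for KO, lowest without control replicate 1 and, for KO2 against KO1, without KO1 replicate 2. Listed genes called were 62, 60, 37 and 49 in the same order, and 28 to 70, 39 to 67, 23 to 45 and 12 to 53 with 1 library left out. Over all tested genes the shares called were 31.6, 31.4, 19.6 and 22.6% in that order. The lists were chosen with earlier results known, so their counts are a description.

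Same-numbered libraries correlated at -0.149 to 0.0429 in their deviations from group means, so the numbers were not taken to pair them, and not every library correlated best with its own number.

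Peaks of the members by gene name were 1, 2, 3 and 2 (even, odd, all in 4T1, NDL). Of these, 0, 1, 0 and 0 had a score of at least 100. Within 100 kb of a start there were 25, 26, 35 and 33 peaks, of which 4, 6, 5 and 3 had such a score. By the nearest start, chosen after seeing the data, the counts were 5, 5, 10 and 9. With 2 control libraries, changes of low genes such as Cebpa and Cebpd are imprecise.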
